A study of Mus musculus with 26 samples.

Results

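Zbtb16 (ENSMUSG00000066687) is 1 gene of the 54532 in the deposited count table, found by its symbol, and it is described here in the livers of all 26 mice together with the genes whose counts moved with it. It encodes PLZF, a transcriptional repressor with an N-terminal BTB domain, through which it pairs and recruits corepressors and histone deacetylases, and a row of C-terminal zinc fingers that bind DNA. The gene is best known from its fusion to the retinoic acid receptor in acute promyelocytic leukaemia and as the factor that directs natural killer T cell development. In several tissues it is a target of the glucocorticoid receptor, the nuclear receptor for cortisol and corticosterone, and work in mouse liver tied it to gluconeogenesis, the making of glucose during fasting. In the mm10 build the GENCODE M21 annotation places the gene on chromosome 9 from 48654297 to 48836222 on the minus strand, as a protein-coding gene with 2 transcripts and 9 distinct exons.

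The study gave C57BL/6 mice benoxacor, a safener added to herbicide products to protect the crop, by oral gavage on 3 consecutive days, and took the livers 24 hours after the last exposure. The doses were 0 mg/kg (5 mice), 0.5 mg/kg (5 mice), 5 mg/kg (8 mice) and 50 mg/kg (8 mice), and the labels give an acclimatisation from 4 to 8 weeks, without saying whether this is age, with mixed bedding to even out the gut microbes. The mouse numbers in the labels form a run that starts at 619 (11 mice) and a run that starts at 601 (15 mice). Nothing in the labels tells what the runs are. Numbers rise with dose in both, so dose and the order of numbering cannot be told apart. The labels give no sex and name no vehicle for the 0 mg/kg mice. Values are read counts scaled for library size with TMM factors (CPM), and differences are on the log2 scale. Library totals ranged from 5433074 to 9088626 reads, and Zbtb16 had between 38 and 369 reads per library with a median of 96.

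Zbtb16 was chosen because it had stood out at 50 against 0 mg/kg in an earlier analysis of the same counts, so its levels by dose are given as a description with no test. The level was lower at each higher dose, and within each dose the run from 619 had the higher mean. At 0 mg/kg the single mouse of the run from 619 had 54.5 CPM, and the 4 mice of the run from 601 had 27.6, 18.7, 14.3 and 27.6 CPM. At 0.5 mg/kg the 2 mice of the run from 619 had 30.7 and 16.4 CPM, and the 3 of the run from 601 had 18.6, 18.5 and 9.39 CPM. The highest level at 0.5 mg/kg was thus in the run from 619 and the lowest in the run from 601. At 5 mg/kg the run from 619 had 19.9, 8.41, 30.9 and 18.3 CPM, and the run from 601 had 9.77, 9.33, 12.1 and 6.62 CPM. At 50 mg/kg the run from 619 had 19.97, 15.5, 13.0 and 9.53 CPM, and the run from 601 had 5.40, 6.08, 8.46 and 7.16 CPM. At 50 mg/kg the runs did not overlap, while at 5 mg/kg replicate 6, with 8.41 CPM, lay among the mice of the run from 601.

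**Figure D1:**
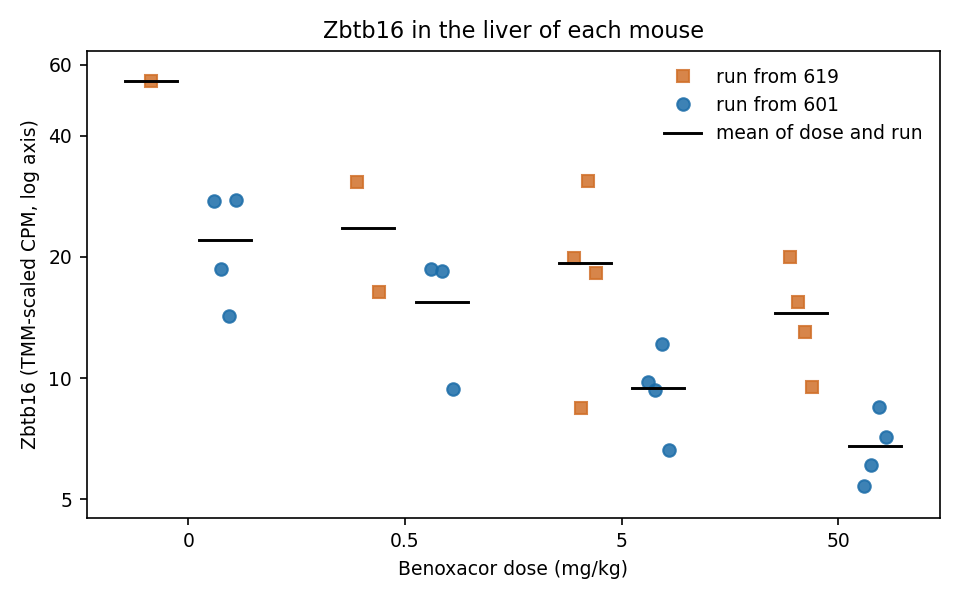
Zbtb16 in each mouse in TMM-scaled CPM on a log axis, by benoxacor dose in mg/kg, with squares for the run from 619, circles for the run from 601 and a black line at the mean of each dose and run. Within the run from 601 the 4 mice at 50 mg/kg, at 5.40 to 8.46 CPM, lie below all mice at 0.5 and 0 mg/kg of that run, and the mean of the run from 619 lies higher at each dose.

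Within the run from 601 the 50 mg/kg mice reached at most 8.46 CPM, against at least 14.3 CPM in the 0 mg/kg mice, and the groups did not overlap. The 50 mg/kg mice of that run also lay below its 0.5 mg/kg mice, whose lowest value was 9.39 CPM. The 5 mg/kg mice of the run from 601 reached at most 12.1 CPM, against at least 14.3 CPM in its 0 mg/kg mice, again with no overlap. Neighbouring doses did overlap in that run, so the order of 50 and 5 mg/kg, of 5 and 0.5 mg/kg and of 0.5 and 0 mg/kg rests on means that lie within the spread of the mice. In the run from 619 the dosed mice all lay below the 54.5 CPM of 1 control mouse, and of the pairs of dosed groups none was free of overlap. How many of all genes separate doses within a run in this way was not counted. The comparison of 50 with 0 mg/kg chose the gene, so its lack of overlap lends no support.

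Over both runs, with dose and run as terms of edgeR's quasi-likelihood fit, the log2 fold change of Zbtb16 was -1.72 (SE 0.25) at 50 against 0 mg/kg, a 3.29-fold lower level. It was -1.28 (SE 0.25) at 5 against 0 mg/kg, or 2.42-fold lower. At 0.5 against 0 mg/kg it was -0.74 (SE 0.27), or 1.67-fold lower. These 3 comparisons share the 5 control mice. The share of the 14415 genes past an adjusted p of 0.05 at 50 against 0 mg/kg was 0.00694%, given as background only, since that comparison chose the gene. At 50 against 0.5 mg/kg the log2 fold change was -0.98 (SE 0.25) and at 50 against 5 mg/kg it was -0.44 (SE 0.23, 95% interval -0.91 to 0.020). At 50 against 0 mg/kg the value was -1.90 in the run from 619 alone and -1.71 in the run from 601 alone. It was -1.42 without the run term and -1.64 without 0 mg/kg replicate 5, the single control of the run from 619.

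The comparison of 5 with 0.5 mg/kg shares no mouse with the one that chose the gene, and it did not pass. The log2 fold change was -0.54 (SE 0.25, 95% interval -1.05 to -0.024). Its unadjusted p was 0.0407, and adjusted by Benjamini-Hochberg over the 14415 genes of the edgeR fit it was 0.695. In that comparison 0 genes passed in edgeR (0% of all tested), and 1012 had an unadjusted p under 0.05. The value was -0.31 in the run from 619 alone and -0.69 in the run from 601 alone. It was -0.17 without 0.5 mg/kg replicates 1 and 2.

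The difference between the runs of mouse numbers did pass, and it is not the contrast that chose the gene, although the means of the runs were known beforehand. Over all doses Zbtb16 averaged 21.6 ± 13.2 CPM (SD, n = 11) in the run from 619 and 13.3 ± 7.36 CPM (SD, n = 15) in the run from 601. The log2 fold change with dose as a term was 1.01 (SE 0.18, 95% interval 0.64 to 1.37), a 2.01-fold difference (adjusted p = 0.0186, edgeR). Over all genes 0.0902% passed in this comparison, 13 genes, 10 higher (0.0694%) and 3 lower (0.0208%) in the run from 619, and Zbtb16 was the fourth by p-value. The call was lost without 5 mg/kg replicate 4 (adjusted p = 0.0508) and without 0.5 mg/kg replicate 4 (adjusted p = 0.0548), with the size of the difference at 0.96 and 0.98, and by limma-voom (0.96, adjusted p = 0.0511). What the runs stand for was not tested.

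Only the 5 and 50 mg/kg groups have 4 mice in each run, and in them the difference between doses could be compared between runs. The log2 fold change at 50 against 5 mg/kg differed by 0.034 between the run from 619 and the run from 601 (SE 0.43, 95% interval -0.87 to 0.94, adjusted p = 0.997 in edgeR's quasi-likelihood test), where 0% of 14222 genes passed and 717 had an unadjusted p under 0.05. The interval is wide enough to hold a value larger than that difference itself, so the runs are not shown to respond alike.

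**Figure D2:**
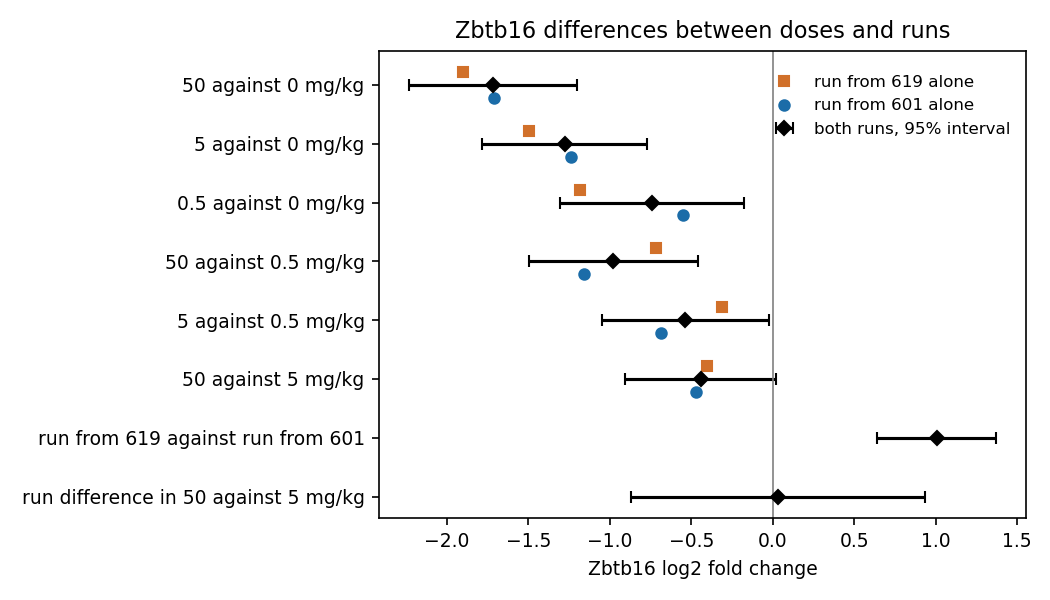
Zbtb16 log2 fold change in each comparison (x axis), with black diamonds and 95% intervals for the fit over both runs, squares for the run from 619 alone and circles for the run from 601 alone. The 6 dose comparisons are below 0 in both runs, from -0.44 to -1.72 over both runs, and the run difference is 1.01.

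Zbtb16 is also made by natural killer T cells and other innate-like T cells, so markers of these and of other liver cells were read beside it. In a bulk sample, fewer cells of a type and less RNA per cell cannot be told apart. Of 22 markers of T, natural killer T and innate lymphoid cells, all were found and 5 passed the filter on low counts. Their summed level spanned 15.8 to 26.3 CPM at 0 mg/kg, 13.1 to 24.2 CPM at 0.5 mg/kg, 13.4 to 63.5 CPM at 5 mg/kg and 14.2 to 25.1 CPM at 50 mg/kg. Of their defining genes, the T cell receptor subunit gene Cd3e was at 0 in 3 mice, Cd3d in 7, the receptor constant region Trac in 5 and the cytotoxic granule gene Nkg7 in 5. The natural killer receptor gene Klrb1c was at 0 in 2 mice and had at most 0.957 CPM. Cd3g was at 0 in 2 mice and reached 5.50 CPM. Il2rb and Cxcr6 were at 0 in 0 mice, with medians of 2.11 and 0.898 CPM. The 16 stellate cell and fibroblast markers, all found and all tested, summed to 231 to 321 CPM at 0 mg/kg, 195 to 450 CPM at 0.5 mg/kg, 256 to 654 CPM at 5 mg/kg and 205 to 425 CPM at 50 mg/kg. None of their defining genes (Dcn, Col1a1, Col1a2, Col3a1, Lrat, Reln) was at 0 in any mouse. By run, the T cell list summed to 13.1 to 63.5 CPM with a median of 20.5 in the run from 619, against 13.4 to 25.1 CPM with a median of 17.6 in the run from 601. Its 5 tested genes were all above 0 in the comparison of runs (median log2 fold change 0.45). So were all 15 tested hepatocyte markers and all 5 tested markers of steroid-producing cells. Of the 16 stellate cell markers 6 were above 0, and of all 14414 genes 7783 were. At 50 against 0 mg/kg 4 of the 5 T cell genes were below 0 (median -0.29), as were 7051 of all 14414 genes. For the T cell genes both directions were those of Zbtb16, with 0 passing in either. At 5 against 0 mg/kg their median was 0.17, opposite in sign to Zbtb16 (-1.28). At 0.5 against 0 mg/kg it was -0.023, against -0.74 for Zbtb16. The stellate cell list had medians of 284 CPM in the run from 619 and 309 CPM in the run from 601. The ranges of both lists overlapped between doses and between runs, and their part in the Zbtb16 levels was not tested. The liver label held against its own markers, with albumin between 33686 and 106224 CPM and the hepatocyte factor Hnf4a between 423 and 702 CPM. The 15 hepatocyte markers found of 16 summed to 64984 to 86672 CPM at 0 mg/kg, 63759 to 153710 CPM at 0.5 mg/kg, 68610 to 167669 CPM at 5 mg/kg and 70280 to 148591 CPM at 50 mg/kg. One library stood apart. In 5 mg/kg replicate 8 the 12 markers of steroid-producing cells summed to 4052 CPM, and its steroidogenic enzyme Cyp11a1 was at 0 in the other 25 mice. That mouse had 18.3 CPM of Zbtb16, inside the range of its dose and run.

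To find genes that go up and down with Zbtb16 among mice of the same dose and run, Zbtb16's own log2 CPM was added as a term beside dose and run, and each of the other 14414 genes was tested for its slope. A slope is the change in log2 level of a gene for each doubling of Zbtb16. By edgeR's quasi-likelihood test, 11 genes passed an adjusted p of 0.05, which is 0.0763% of those tested. Of these, 8 rose with Zbtb16 (0.0555%) and 3 fell as it rose (0.0208%), while 1627 genes (11.3%) had an unadjusted p under 0.05. The genes were picked out by this same fit, so their slopes and correlations describe them and lend no further support. The group that rose held 4 major urinary protein genes, and of the 3 that fell 2 are cytochromes P450.

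Leaving out a single mouse moved the count by over 1.5 times for 19 of the 26 mice, to between 0 and 7 for 15 of them and to between 18 and 40 for 4. It was 0 without 5 mg/kg replicate 6, the mouse with the lowest Zbtb16 once dose and run were taken out (-1.06 on the log2 scale), and 0 when log2 library size was added as a term. With dose and run taken out, Zbtb16 and log2 library size had a Pearson r of -0.42 and a Spearman rho of -0.33 over 26 mice. Without 5 mg/kg replicate 8, the library with steroid-producing cell genes, 18 genes passed. DESeq2's Wald test called 84 genes, all 11 among them, and limma-voom called 23, with 10 of the 11. The run from 601 alone gave 25 genes, of which 1 was among the 11, and the run from 619 alone gave 1, which was not. The slopes of the 11 genes kept their direction in each of the 40 alternative fits.

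**Figure D3:**
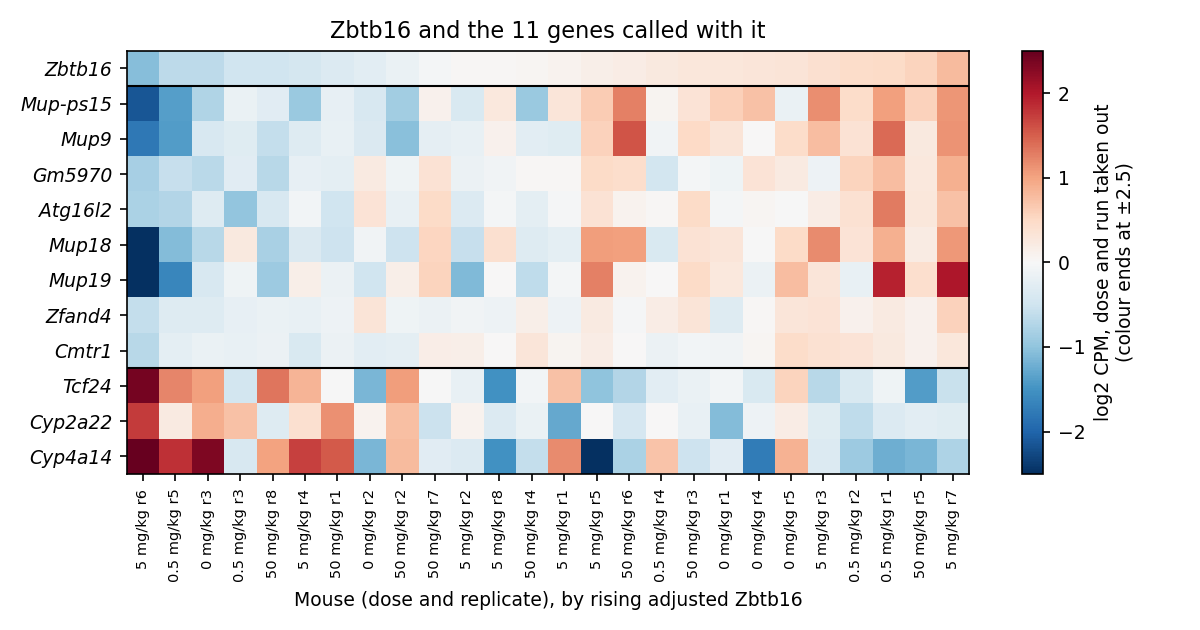
Log2 CPM with dose and run taken out for Zbtb16 and the 11 genes that passed with it (rows), in 26 mice ordered from low to high Zbtb16 (columns, dose and replicate). The 8 genes under Zbtb16 shade from blue to red along with it and the 3 at the bottom run the other way, with 5 mg/kg replicate 6 at the left end.

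Major urinary proteins are small lipocalins that the mouse liver makes in great amount and secretes for the urine, where they carry pheromones; growth hormone acting through STAT5, androgens and glucocorticoids are known to drive their genes. The pseudogene Mup-ps15 followed Zbtb16 most closely, with a slope of 1.58 (SE 0.23, adjusted p = 0.00394 in edgeR) and a Pearson r of 0.84 over 26 mice with dose and run taken out. Mup9 had a slope of 1.43 (SE 0.23, adjusted p = 0.0126), Mup18 of 1.38 (SE 0.26, adjusted p = 0.0373) and Mup19 of 1.63 (SE 0.32, adjusted p = 0.0477). Mup9 spanned 106 to 175 CPM with a median of 141 at 0 mg/kg and 40.5 to 359 CPM with a median of 108 at 0.5 mg/kg. It spanned 22.1 to 167 CPM with a median of 83.3 at 5 mg/kg and 55.8 to 274 CPM with a median of 97.9 at 50 mg/kg. These ranges overlapped between all doses, and the log2 fold change of Mup9 at 50 against 0 mg/kg was -0.17 (SE 0.46). With dose and run taken out, Mup9 had an r of 0.81 and a rho of 0.86 with Zbtb16, and with both left in its r was 0.44.

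**Figure D4:**
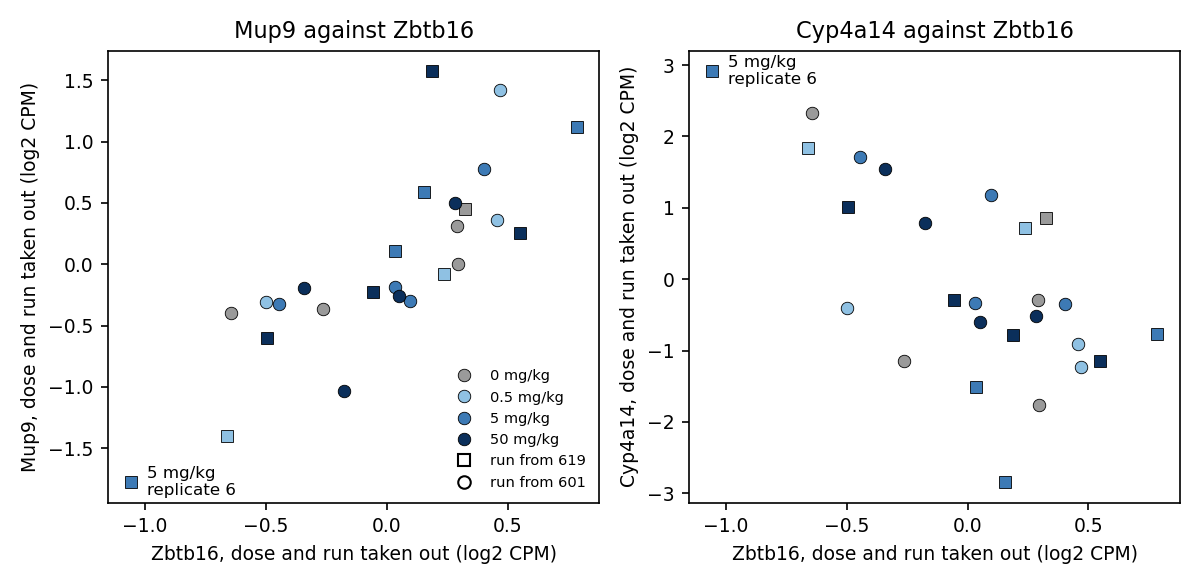
Mup9 (left) and Cyp4a14 (right) against Zbtb16 in 26 mice, both axes in log2 CPM with dose and run taken out, colour for dose, squares for the run from 619 and circles for the run from 601. Mup9 has r = 0.81 and Cyp4a14 r = -0.68, and 5 mg/kg replicate 6 lies at the end of both clouds.

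The table holds 48 genes named Mup, of which 37 were tested, and all 37 had a positive slope, against 51.5% of all genes tested. They were gathered as a group after their values were seen, so no test is given. Their median r with Zbtb16 was 0.67, against 0.0042 over all genes, and their lowest was 0.29. Of the 37, 4 passed over all genes, and Mup1 (adjusted p = 0.0526), Mup12 (0.0535), Mup-ps2 (0.0705), Mup11 (0.0711) and Mup14 (0.0711) lay just outside by edgeR. Mup21, of which 19.3% of the transcript words occur in other Mup genes, had an r of 0.76. Summed over the 48 genes, the family took 0.653% of the reads of 5 mg/kg replicate 6, against 3.00% to 10.6% in the other 25 mice. The summed level had an r of 0.74 and a rho of 0.66 with Zbtb16 at matched dose and run. It had an r of 0.85 within the run from 619 and 0.54 within the run from 601. Without 5 mg/kg replicate 6 it was 0.62, and without the 2 mice farthest in Zbtb16, 5 mg/kg replicate 6 and 0.5 mg/kg replicate 5, it was 0.53. Summed over the 37 tested Mup genes only, the level had an r of -0.53 with log2 library size, with dose and run taken out. With log2 library size as a term 0 genes passed, as given above.

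The Mup genes are near-identical copies whose reads the counting may split or share, so their separate values are uncertain. Of the 50-base words in the GENCODE transcripts of Mup19, 100% occur in the transcripts of another Mup gene, as do 89.6% for Mup18, 79.1% for Mup9 and 74.9% for Mup-ps15. For Zbtb16 the share found in any other gene was 0.192%. The copying reaches into the promoters, and those of the 3 called protein-coding Mup genes are shown for that reason. They are the 250 bases before the annotated start, from RefSeq on GRCm38.p6, all on the minus strand of chromosome 4. Mup9 lies at chr4:60421953-60422202, Mup18 at chr4:61674095-61674344 and Mup19 at chr4:61782225-61782474. Capitals mark the longest run of bases that all 3 share, 113 bases.

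Mup9: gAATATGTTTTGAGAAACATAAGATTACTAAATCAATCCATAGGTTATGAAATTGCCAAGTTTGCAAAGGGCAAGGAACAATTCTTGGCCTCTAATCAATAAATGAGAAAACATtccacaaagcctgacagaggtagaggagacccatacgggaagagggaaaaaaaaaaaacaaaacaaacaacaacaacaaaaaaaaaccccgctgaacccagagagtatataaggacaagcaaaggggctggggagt
Mup18: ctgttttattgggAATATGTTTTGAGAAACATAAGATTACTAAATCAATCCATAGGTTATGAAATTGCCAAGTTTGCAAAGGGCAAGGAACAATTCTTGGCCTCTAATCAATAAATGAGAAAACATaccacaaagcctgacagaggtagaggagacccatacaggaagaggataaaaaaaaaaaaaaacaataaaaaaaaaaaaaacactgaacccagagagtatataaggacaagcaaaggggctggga
Mup19: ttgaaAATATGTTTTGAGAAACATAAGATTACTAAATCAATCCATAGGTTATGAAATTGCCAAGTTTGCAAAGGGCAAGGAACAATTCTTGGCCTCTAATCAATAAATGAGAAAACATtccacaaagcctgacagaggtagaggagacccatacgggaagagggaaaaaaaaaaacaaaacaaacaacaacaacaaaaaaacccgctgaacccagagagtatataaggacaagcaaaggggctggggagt

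The shared run starts 249 bases before the start of Mup9, 237 before that of Mup18 and 245 before that of Mup19. Promoters of 8 of the 11 called genes were in the RefSeq table, 13 windows in all, since Mup-ps15 had 5 and Zfand4 had 2. Some windows of Mup-ps15 overlap, such as chr4:61674910-61675159 and chr4:61674921-61675170, and the printed Mup promoters share long runs. The 13 windows are thus not independent, and the shares of all promoters are given as background only. The palindromic glucocorticoid response element, searched on both strands, matched in 0 of the 13, and it is held by 0.387% of the 32841 promoters in the table. A STAT5 element, TTCNNNGAA, matched in 0 of the 13, against 7.02% of all. The exact letters TATAAA of a TATA box, on either strand, matched in 3 of the 13 windows, against 12.4% of all. These were 1 each of Mup-ps15 (at -80 from the start), Zfand4 (at -194) and Cyp2a22 (at -28). The printed promoters of Mup9, Mup18 and Mup19 hold tatataag near the start, which those letters miss, so they are not shown to lack a TATA box. An antioxidant element, TGACNNNGC, matched in 1 of the 13 (Zfand4), against 10.2%. Of the glucocorticoid genes named below, only Fkbp5, Per1, Tsc22d3, Sgk1, Tat, Pck1 and G6pc had promoters that were searched. Sgk1 held the glucocorticoid element in 1 of its 6 windows, and the other searched genes did not hold it. These are matches of letters in short windows and say nothing of binding.

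Outside the Mup family, 4 genes rose with Zbtb16. Atg16l2, a relative of the autophagy gene Atg16l1, had a slope of 0.87 (SE 0.16, adjusted p = 0.0365 in edgeR) and spanned 12.2 to 103 CPM over the 26 mice. Gm5970, annotated as a processed pseudogene, had a slope of 0.85 (SE 0.15). Zfand4, which encodes a zinc finger protein of the AN1 type, had 0.47 (SE 0.095), and Cmtr1, a methyltransferase of the mRNA cap, had 0.49 (SE 0.098), each with an adjusted p of 0.0477. Of the transcript words of Cmtr1, 71.8% also occur in another annotated gene, so its count is uncertain, while for Zfand4 and Atg16l2 the share was 0%. Zfand4 was also the called gene most like Zbtb16 with nothing taken out (r = 0.64), and it had a log2 fold change of -0.31 (SE 0.16) at 50 against 0 mg/kg, which did not pass.

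Cyp4a14, a fatty acid omega-hydroxylase and a classical PPAR-alpha target, fell as Zbtb16 rose, with the steepest slope of the 11 genes, -2.13 (SE 0.41, adjusted p = 0.04998 in edgeR, just inside the threshold). It varied widely at each dose, from 32.1 to 547 CPM at 0 mg/kg, 48.3 to 556 CPM at 0.5 mg/kg, 20.9 to 1146 CPM at 5 mg/kg and 91.8 to 431 CPM at 50 mg/kg. The doses overlapped, and the medians were 89.2, 85.4, 88.3 and 142 CPM at the rising doses. Its r was -0.68 over 26 mice, -0.77 within the run from 619, -0.71 within the run from 601 and -0.58 without 5 mg/kg replicate 6. Its close relative Cyp4a10, also a PPAR-alpha target, had a slope of -1.10 (SE 0.24, adjusted p = 0.0711) and lay just outside. Cyp2a22, a P450 of the Cyp2a cluster, had a slope of -1.21 (SE 0.24, adjusted p = 0.0477) at a level of 0.560 to 9.77 CPM. Tcf24, a basic helix-loop-helix factor, had a slope of -1.56 (SE 0.29, adjusted p = 0.0365) and reached 25.5 CPM in 5 mg/kg replicate 6, against at most 13.3 CPM in the other mice. Nqo1, a quinone reductase and NRF2 target, had the most negative r of all genes with at least 1 CPM, -0.73, with a slope of -0.88 (SE 0.18) and an adjusted p of 0.0507, just outside. The other genes among the 10 least like Zbtb16 were the DNA ligase gene Lig1 (r = -0.73), Adck1 (-0.70), Gpbp1l1 (-0.69), the sorting nexin gene Snx15 (-0.69), the tubulin tyrosine ligase gene Ttl (-0.68), the cell death gene Bid (-0.68) and the potassium channel gene Kcnk10 (-0.67). These did not pass, with adjusted p-values from 0.153 to 0.333.

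With dose and run left in, other genes were nearest. Capn2, a calcium-dependent protease, had a plain r of 0.73 with Zbtb16 over 26 mice, followed by the endotoxin coreceptor Cd14 (0.68), the signal peptidase subunit Sec11c (0.67), the transcription factor gene Gtf2ird1 (0.67) and the non-coding C330002G04Rik (0.67). The farthest were Smn1, of the splicing machinery (-0.69), the predicted gene Gm7336 (-0.69), the flavin monooxygenase Fmo2 (-0.67), the adrenergic receptor Adra1a (-0.66) and the ubiquitin ligase scaffold Cul4a (-0.64). These values carry the dose and run differences that the mice share, and taking both out left Capn2 at 0.29 and Fmo2 at -0.34. Fmo2 had a log2 fold change of 1.06 (SE 0.29) at 50 against 0 mg/kg and Gtf2ird1 of -0.51 (SE 0.13), and neither passed.

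**Figure D5:**
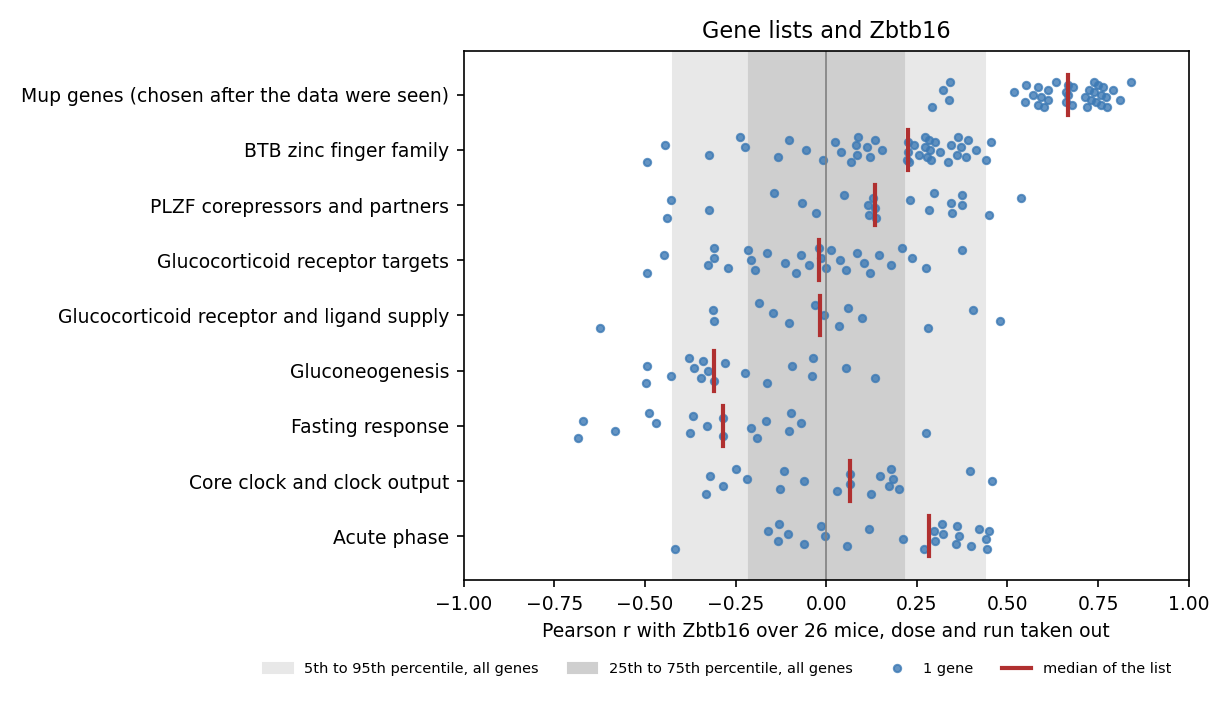
Pearson r with Zbtb16 over 26 mice with dose and run taken out (x axis), 1 dot per tested gene in each list (y axis), a red line at the list's median and grey bands for the 5th to 95th and 25th to 75th percentiles of all tested genes. The Mup genes have a median of 0.67, the BTB zinc finger family 0.23, and the fasting response and gluconeogenesis lists -0.28 and -0.31.

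Among the glucocorticoid receptor's targets no gene passed with Zbtb16. Of 29 tested targets, 11 had a positive and 18 a negative slope, and 0 passed in either direction in edgeR. An unadjusted p under 0.05 in edgeR was found for 2 of them (6.9%), against 11.3% of all genes tested. The median r of the targets was -0.021, against 0.0042 over all genes. The 4 targets with the smallest p were Foxo1 (slope -0.27, SE 0.11), Nfkbia, an inhibitor of NF-kappaB (-0.30, SE 0.13), Gadd45g (0.95, SE 0.53) and the serine dehydratase Sds (-0.35, SE 0.20). None passed, with adjusted p-values from 0.393 to 0.486 in edgeR. Fkbp5, a chaperone that feeds back on the receptor, had a slope of -0.072 (SE 0.21). Its mean was 63.9 ± 20.6 CPM in the 8 mice at 50 mg/kg, against 40.6 ± 12.3 CPM (both SD) in the 5 mice at 0 mg/kg, a log2 fold change of 0.73 (SE 0.29), opposite in sign to Zbtb16, which did not pass. The clock and glucocorticoid gene Per1 had a slope of 0.18 (SE 0.27), the anti-inflammatory Tsc22d3 of -0.15 (SE 0.14) and the kinase gene Sgk1 of -0.11 (SE 0.18). At 50 against 0 mg/kg their log2 fold changes were -0.34 (SE 0.32), -0.17 (SE 0.19) and 0.033 (SE 0.23). The receptor gene itself, Nr3c1, had a slope of 0.031 (SE 0.096) and a log2 fold change of 0.17 (SE 0.12) at 50 against 0 mg/kg. None of these passed, and the signs of the slopes of Fkbp5, Per1, Tsc22d3, Sgk1 and Nr3c1, and of the fold changes of Tsc22d3 and Sgk1, turned in some of the alternative fits. Of 14 genes of the receptor's chaperones and hormone supply, 8 had a positive slope and 0 passed. In edgeR 3 of the 14 (21.4%) had an unadjusted p under 0.05, against 11.3% of all genes tested. Serpina6, the corticosteroid-binding globulin of the blood, had a slope of -0.83 (SE 0.20, adjusted p = 0.153) and did not pass. The chaperone genes went both ways, with 0.54 (SE 0.23) for Hsp90aa1 and 0.26 (SE 0.10) for Ptges3, and -0.23 (SE 0.15) for Fkbp4, -0.13 (SE 0.16) for Hsp90ab1 and -0.12 (SE 0.16) for Stip1.

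Slopes were mostly negative among genes of fasting and glucose output. Of 17 fasting response genes, 1 had a positive and 16 a negative slope, with a median r of -0.28, and 1 passed, Cyp4a14. Over all genes tested 51.5% had a positive slope and 0.0763% passed. In edgeR 5 of the 17 (29.4%) had an unadjusted p under 0.05, against 11.3% of all genes tested. The thioesterase Acot1 had a slope of -0.86 (SE 0.26, adjusted p = 0.263) and the pantetheinase Vnn1 of -0.50 (SE 0.17, adjusted p = 0.339). Of 17 gluconeogenesis genes, 2 had a positive and 15 a negative slope, with a median r of -0.31, and 0 passed. In edgeR 3 of these 17 (17.6%) had an unadjusted p under 0.05. Pck1, the enzyme that commits carbon to glucose, had a slope of -0.27 (SE 0.40), G6pc, the glucose phosphatase, of -0.47 (SE 0.40), and the aminotransferase Tat of -0.32 (SE 0.22). The pyruvate carboxylase gene Pcx had -0.28 (SE 0.13), the glucose phosphate transporter Slc37a4 -0.28 (SE 0.15), Pgm2 -0.42 (SE 0.15) and the transcription factor Foxo1 -0.27 (SE 0.11). At 50 against 0 mg/kg, Pck1 had a log2 fold change of -0.42 (SE 0.49), G6pc of -0.19 (SE 0.46) and Tat of -0.056 (SE 0.29), none of which passed, and the signs for G6pc and Tat turned in some fits. Within the run from 619 the median r of the gluconeogenesis genes was -0.088, and within the run from 601 it was -0.49. The hepatocyte markers had negative slopes in 14 of 15 tested genes, with a median r of -0.21 and 0 passing. That median was -0.26 within the run from 619, 0.029 within the run from 601 and -0.026 without the 2 mice farthest in Zbtb16.

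Slopes were mostly positive among PLZF's relatives and partners. Of 43 tested BTB zinc finger genes besides Zbtb16, 35 had a positive and 8 a negative slope, with a median r of 0.23, and 0 passed. In edgeR 6.98% of them had an unadjusted p under 0.05, against 11.3% of all genes tested. Without the 2 mice farthest in Zbtb16 the median r of the family was 0.12. Zfp131 had a slope of 0.32 (SE 0.13) and Zbtb41 of 0.43 (SE 0.20), while Zbtb42 had -0.35 (SE 0.15) and Bcl6b, a relative of the repressor BCL6, had -0.52 (SE 0.26). At 50 against 0 mg/kg the family split evenly, with 23 of 43 genes above 0, a median log2 fold change of 0.0092 and 0 passing. Of 21 tested corepressors and partners, 15 had a positive slope, with a median r of 0.14 and 0 passing. An unadjusted p under 0.05 in edgeR was found for 9.52% of these partners, below the 11.3% of all genes. Their median r was 0.074 without the 2 mice farthest in Zbtb16. Among them the Polycomb genes Bmi1 and Rnf2 had slopes of 0.44 (SE 0.14) and 0.24 (SE 0.13), the corepressor Rcor1 had 0.22 (SE 0.10) and the deacetylase Hdac2 0.21 (SE 0.11).

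Acute phase genes, which the liver raises in inflammation, had a positive slope in 16 of 24 cases with a median r of 0.28 and 0 passing. The median r was -0.31 within the run from 619 but 0.54 within the run from 601. In edgeR 3 of the 24 (12.5%) had an unadjusted p under 0.05, against 11.3% of all genes tested. The pentraxin Apcs had a slope of 0.72 (SE 0.33), the serum amyloid Saa4 of 0.48 (SE 0.24), Socs3, a brake on cytokine signals, of 0.67 (SE 0.30), and complement C3 of -0.41 (SE 0.17). Of 19 clock genes, 10 had a positive slope, with a median r of 0.065 and 0 passing. In edgeR 2 of the 19 (10.5%) had an unadjusted p under 0.05. Rora and Clock had slopes of 0.29 (SE 0.12) and 0.35 (SE 0.15), and Bhlhe40 and Hlf of -0.48 (SE 0.28) and -0.21 (SE 0.13). The median r was 0.27 within the run from 619, -0.29 within the run from 601 and -0.045 without 5 mg/kg replicate 6. In the comparison of runs 2 of the 19 passed, against 0.0902% of all genes. These were Npas2, with a log2 fold change of 3.46 (SE 0.56, adjusted p = 0.00987 in edgeR), and Arntl, with 1.30 (SE 0.26, adjusted p = 0.0490). Both were higher in the run from 619, as Zbtb16 was. Over all 19 clock genes, 7 were higher and 12 lower in that run, with a median of -0.48. The markers of other cells had 0 passing: 12 of 16 stellate cell and fibroblast genes, 3 of 5 T cell genes and 3 of 5 steroid-producing cell genes had a positive slope.

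No tested gene around Zbtb16 on chromosome 9 passed with it. Within 500 kb the annotation lists 19 other genes, of which 7 were tested and 0 passed in the co-varying fit. Nnmt, the nicotinamide methyltransferase, had a slope of 0.10 (SE 0.31). The 8 mice at 50 mg/kg had a mean of 69.4 ± 39.9 CPM, against 40.4 ± 15.2 CPM (both SD) in the 5 mice at 0 mg/kg, a log2 fold change of 0.73 (SE 0.43). The RNA-binding gene Rbm7 had the highest r of the 7, 0.49, and Gm5617 the lowest, -0.30, with Nxpe2 at -0.080, Usp28 at -0.074, Zw10 at 0.036 and Rexo2 at 0.022.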

How the data were processed

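Gene counts of liver RNA from 26 mice were used. The deposited values are raw, unscaled counts of reads for each gene. The submitters' processing notes name bcl2fastq, featureCounts and mm10. The aligner, annotation, strand setting and versions are not given in the sources used here. RNA was extracted with a Qiagen kit, per the labels' protocols. Of the IDs, 54495 were in GENCODE M21.

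Genes were filtered by filterByExpr (14415 tested) and scaled by TMM in edgeR 4.0.16 (R 4.3.3). The robust quasi-likelihood test with Benjamini-Hochberg adjustment, at 0.05, used dose and run over 26 mice. The slope fit added Zbtb16's log2 CPM (prior count 2) and left its row out. SEs come from the F statistic. Likeness is Pearson's r of log2 CPM. The tests were tried on simulated data. All 76 pairs of mice of 1 dose differed beyond sampling noise (chi-square per degree of freedom 12.0 to 124).

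Named genes are Zbtb16, the 10 most and 10 least like it (mean of at least 1 CPM), 5 each way with nothing taken out, up to 4 of each list by slope p, tested genes within 500 kb, 8 glucocorticoid genes and, added after the values were seen, those that passed the slope test and those just outside. Zbtb16, the lists and the tests were chosen with earlier results of these data known. Alternatives were DESeq2 1.42.0, limma-voom (3.58.1), other scalings, filters, terms and subsets, and leaving out each mouse.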

Additional observations from a re-analysis of the deposited data

Results flagged for a closer look

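The gap between a mouse and its nearest neighbour was compared with the range of its dose group (Dixon's 95% limit) for Zbtb16, the 11 genes that passed with it, Fkbp5, Nnmt and the Mup sum, in 65 groups. Chance flags about 1 group in 20 where groups are independent and values normally distributed, and 7 were flagged. Here the groups share mice, the values are unlogged CPM, and 11 of the genes were picked by the slope fit. The 7 flags are therefore a description and not a count to set against chance. In 5 mg/kg replicate 6, Tcf24 had 25.5 CPM (next mouse 5.30), Cyp4a14 1146 CPM (next 362) and Cyp2a22 9.77 CPM (next 3.58), each the highest of 8 mice. This mouse also had the lowest Zbtb16 with dose and run taken out and the lowest Mup share, and the slopes of the 3 genes without it are -1.26, -2.06 and -0.90, with none passing. Tcf24 was also apart in 0.5 mg/kg replicate 5 (13.3 CPM, next 4.58) and in 50 mg/kg replicate 8 (8.91 CPM, next 4.45). Mup19 had 1943 CPM in 0.5 mg/kg replicate 1 (next 474). Fkbp5 had 19.5 CPM in 0 mg/kg replicate 2, below the next mouse at 43.1 CPM. Zbtb16 itself was not flagged at any dose, nor within a dose and run of 4 mice.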

How the results depend on the processing

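The 6 dose fold changes of Zbtb16 kept their direction in each of 36 alternatives. The run difference was 0.96 by limma-voom (adjusted p = 0.0511) and 0.91 to 1.09 on leaving out each mouse. The run difference in 50 against 5 mg/kg was -0.34 without 5 mg/kg replicates 6 and 8, and -0.22 to 0.38 on leaving out each mouse. The number of genes that followed Zbtb16 was 84 by DESeq2, 23 by limma-voom, 25 with the run from 601 alone, 1 with the run from 619 alone, 6 with the rank of Zbtb16, 3 with 8 separate means for dose and run and 4 without 0.5 mg/kg replicates 1 and 2. It was 0 with no run term, with neither dose nor run, with library size as a term and without 5 mg/kg replicates 6 and 8. On leaving out each mouse it was 0 to 40: 15 mice lowered it to between 0 and 7 and 4 raised it to between 18 and 40. It was 2 and 4 without 0 mg/kg replicates 3 and 4, and 4, 22, 40 and 1 without 0.5 mg/kg replicates 1, 3, 4 and 5. At 5 mg/kg it was 7, 5, 5, 0, 3 and 18 without replicates 2, 3, 4, 6, 7 and 8. At 50 mg/kg it was 4, 3, 3, 6, 23, 5 and 3 without replicates 1, 2, 3, 4, 5, 6 and 8. The cause was not tested.

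Signs turned for these genes. At 50 against 0 mg/kg Cyp4a14 was 0.45 by limma-voom, 0.082 with no run term, 0.31 in the run from 601 and 0.025 without 5 mg/kg replicates 6 and 8 (-0.49 to 1.07 on leaving out each mouse). Tsc22d3 was 0.38 and Tat 0.33 in the run from 619, Tat 0.019 with the run from 601 alone (-0.22 to 0.17), Sgk1 -0.0026 without 0.5 mg/kg replicates 1 and 2 (-0.068 to 0.24) and G6pc -0.36 to 0.17. In the run from 619 the slopes were 0.091 for Hlf, -0.14 for Apcs and 0.070 for G6pc. In the run from 601 they were -0.042 for Rora, 0.0050 for C3, 0.17 for Sgk1, -0.11 for Per1, 0.13 for Fkbp5 and -0.075 for Nr3c1. Without 5 mg/kg replicates 6 and 8 they were 0.087 for Sgk1, -0.053 for Per1 and 0.024 for Fkbp5. With neither dose nor run they were 0.054 for Pck1, 0.019 for Tsc22d3, -0.13 for Per1 and -0.012 for Nr3c1. Per1 was -0.53 with no run term, Fkbp5 0.077 with library size as a term, and Nr3c1 -0.011 without 0.5 mg/kg replicates 1 and 2 and -0.0088 with 8 separate means. On leaving out each mouse Sgk1 spanned -0.21 to 0.010, Per1 -0.061 to 0.30, Fkbp5 -0.21 to 0.058 and Nr3c1 -0.011 to 0.064. No paired analysis was possible because the replicate numbers only follow accession order. With 1 control in the run from 619, values against 0 mg/kg in that run have no spread of their own.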
